A study of Mus musculus with 4 samples.

Results

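Interferon-responding cells were followed among regulatory T (Treg) cells of mouse visceral adipose tissue (VAT), read by droplet-based 5′ RNA sequencing of single cells. They were chosen by their counts of interferon-induced genes: a cell qualified when it held at least 1 unique molecular identifier (UMI, the tag that marks 1 captured RNA molecule) of 4 or more of the 10 genes Ifit1, Ifit3, Ifit3b, Rsad2, Isg15, Rtp4, Usp18, Cmpk2, Irf7 and Zbp1. This rule found 129 cells, among 16895 that passed the cell filters and 20492 barcodes in all. WT gave 13 among 3490 cells and KO 19 among 3956, while NCD gave 30 among 4938 and HFD 67 among 4511. Because measured counts chose these cells, every contrast of them with the remaining cells describes the choice and carries no test.

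Cells had been sorted as live CD3+ CD4+ Foxp3+ in 2 separate experiments, each mixing a pair of conditions 1:1 after labelling them with oligonucleotide-tagged antibodies (hashtags). In the first, Hashtag 1 marked WT cells, from 4 male Foxp3YFP-cre Srebf2WT/WT mice, and Hashtag 2 marked KO cells, from 4 male Srebf2flox/flox mice that carry the same Foxp3YFP-cre. All 8 of these mice were 25 weeks old and at steady state, and the Cre is driven by Foxp3, so that it is aimed at Foxp3-expressing cells; Srebf2 encodes a regulator of cholesterol synthesis. In the second, Hashtag 3 marked 5 male mice fed normal chow (NCD), and Hashtag 4 marked 5 male mice fed a high-fat diet (HFD). Both diet groups carried the Foxp3thy1.1 and PpargTdt alleles, were 23 to 27 weeks old and had been on their diet for 22 weeks. Each condition is 1 pool of mice behind 1 hashtag, which leaves no replicate check, and every interval below is a 95% interval of counting error only. A median member held 3724 UMIs (WT), 4486 (KO), 5646 (NCD) and 4664 (HFD), against 3589, 3639, 3983 and 3181 in the remaining cells. Detection of 4 genes is easier in a deeper cell, so shares are also given after every cell was thinned to 2000 UMIs.

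Type I interferons signal through the receptor chains IFNAR1 and IFNAR2 to the kinases JAK1 and TYK2. These activate STAT proteins, which join IRF9 to form the complex ISGF3. ISGF3 binds the interferon-stimulated response element in promoters and switches on a large set of antiviral genes, while type II interferon acts through its own receptor on an overlapping set. In VAT, Treg cells that carry ST2, the interleukin-33 receptor encoded by Il1rl1, form a large population that depends on Foxp3 and PPARγ, and interferons are known to act on adipose Treg cells in obesity.

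A few members stood apart from T cells and are named before the results. In WT, 2 of the 13 members held no UMI of Cd3d, Cd3e, Cd3g, Trac or Cd4 but 629 UMIs of Fabp4, 68 of Cldn5, 35 of Cdh5 and 35 of Sox17, genes of endothelial cells, and these 2 cells made up 32.1% of the WT members' UMIs. In NCD, 1 member carried 466 UMIs of Jchain, a plasma cell gene, and 8.43% of the NCD members' UMIs. The remaining 126 members had 0 UMIs of Cdh5, Cldn5, Sox17 and Jchain, and values without those 3 cells are called T-cell-only values below. One KO member of 35932 UMIs supplied 30.2% of all KO member counts. Between the pools, 87 barcode sequences recurred among the kept cells, none of them in a pair of members.

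Promoters of several rule genes and of genes that were higher beside them hold letters of the response element, and stretches of them are shown because the members are defined by these genes' joint detection. RefSeq windows of GRCm38.p6, from 250 bases before to 50 bases after a transcript start, were searched on both strands for TTTCNNTTTC, whose reverse complement is GAAANNGAAA; overlapping matches were allowed. Of all 32851 windows, 3.44% held a match, as did 3.99% of the 27025 genes with a window. Among rule genes with an entry, a match lay in 5 of 7: Ifit1, Ifit3, Ifit3b, Rsad2 and Isg15 held one, whereas Irf7 and Cmpk2 did not, and Rtp4, Usp18 and Zbp1 have no entry in the table. Among the 12 genes outside the rule that were most uniformly higher in members, a match lay in 5 of 9. In the lines below the capitals mark matches, each sequence runs 5′ to 3′ on the gene's strand, and coordinates are 1-based.
Ifit1, chr19:34640765-34640833, plus strand: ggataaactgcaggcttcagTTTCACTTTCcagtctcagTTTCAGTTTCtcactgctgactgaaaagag
Ifit3, chr19:34583353-34583436, plus strand: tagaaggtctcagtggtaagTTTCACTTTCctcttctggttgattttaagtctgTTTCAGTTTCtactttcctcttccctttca
Isg15, chr4:156200855-156200916, minus strand: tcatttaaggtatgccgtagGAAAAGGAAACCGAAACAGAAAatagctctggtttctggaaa
Rsad2, chr12:26456543-26456592, minus strand: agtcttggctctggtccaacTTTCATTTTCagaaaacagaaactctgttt
Irgm1, chr11:48871421-48871470, minus strand: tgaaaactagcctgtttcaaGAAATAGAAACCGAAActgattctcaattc
Ifi208, chr1:173673587-173673636, plus strand: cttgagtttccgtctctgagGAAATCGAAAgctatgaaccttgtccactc
Trim30a, chr7:104465200-104465249, minus strand: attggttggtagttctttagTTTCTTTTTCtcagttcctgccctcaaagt
Isg15 held 3 overlapping matches, and Ifit1, Ifit3 and Irgm1 held 2 each. The matched stretch of Ifit3b has the same letters as that of Ifit3, and the pair are near copies, as are Ifi206, Ifi208 and Ifi213, so that the counting software may have split or dropped reads between them. A match is a stretch of letters and not a measured binding site.

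Among rule genes, the transcription factor Irf7 was detected in 108 of 129 members, the ISG15 modifier in 102, the Z-nucleic-acid sensor Zbp1 in 103 and Rtp4, a receptor transporter protein induced by interferon, in 100. The RNA-binding Ifit1 was found in 67, the ISG15 protease Usp18 in 60, the mitochondrial nucleotide kinase Cmpk2 in 51, Ifit3 in 37, Rsad2, which encodes the antiviral enzyme viperin, in 35 and Ifit3b in 29. To see whether these genes go together when they are not used to choose cells, each was left out of the rule in turn, the cells were chosen by 4 or more of the other 9, and the left-out gene was read in them. Irf7 was then present in 75.3% of 85 cells (interval 64.7 to 84), against 10% of all remaining cells. Zbp1 stood at 71.4% of 91 cells (61 to 80.4) against 11.3%, and Isg15 at 71.3% of 94 cells (61 to 80.1) against 9.86%. Rtp4 was present in 66.3% of 86 cells against 3.13%, and Ifit1 in 44.6% of 112 cells against 0.792%. The 5 rarer genes ranged from Usp18 at 35.5% against 1.62% to Ifit3b at 21.9% against 0.113%. Every one of the 10 left-out genes was thus more frequent in cells chosen by the other 9 than elsewhere, with counting intervals that did not overlap. All cells chosen in this way were also members, and the rule was set with earlier results of these data known. Ifit3 and Ifit3b may also share reads. The shares therefore describe the chosen set and carry no test. Members held more UMIs than other cells, as given above, and the part of depth in these shares was not tested.

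By condition, Irf7 stood at 399 CPM (counts per 1000000 of the counts summed over members) (WT), 345 (KO), 355 (NCD) and 247 (HFD), with 26.6, 28.8, 22.1 and 32.3 CPM in other cells. Isg15 stood at 481, 487, 677 and 308 CPM in members and at 35.9, 34.7, 28.3 and 43.7 CPM elsewhere. Rtp4 was at 289, 202, 252 and 259 CPM in members. Outside them it was at 2.94, 4.23 and 3.68 CPM in WT, KO and NCD but at 21.3 CPM in HFD. Ifit1 stood at 330, 92.4, 359 and 133 CPM in members and at 1.51, 1.9, 0.773 and 3.58 CPM outside them. Isg15 and Ifit1 levels were thus highest in NCD members, but among T-cell-only members Ifit1 reached 446 CPM (WT) against 393 CPM (NCD), and Isg15 669 against 719 CPM. Outside members all 4 of these genes were highest in HFD, as were Ifit3, Ifit3b, Usp18 and Zbp1. Cmpk2 was instead lowest in HFD, at 4.63 CPM against 8.75 (WT), 8.27 (KO) and 8.23 (NCD). Rsad2 was highest in WT, at 2.58 CPM against 1.71 in HFD. Ifit3 had 46 UMIs in 30 NCD members and 0 in the 4908 other NCD cells, against 29 UMIs in HFD members and 21 in other HFD cells.

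Members made up 0.372% of the cells in WT (interval 0.198 to 0.636) and 0.48% in KO (0.289 to 0.749). In NCD they made up 0.608% (0.41 to 0.866), and in HFD 1.49% (1.15 to 1.88). The HFD share was 2.44-fold that of NCD, a log2 ratio of 1.29 (0.65 to 1.96), and the KO share was 1.29-fold that of WT, at 0.37 (−0.73 to 1.51), an interval that spans 0. After thinning, which left out 307 WT, 311 KO, 286 NCD and 711 HFD cells below 2000 UMIs, the shares were 0.157%, 0.11%, 0.193% and 0.605%. These rest on 5 WT, 4 KO, 9 NCD and 23 HFD cells, with intervals of 0.051 to 0.366, 0.0299 to 0.281, 0.0885 to 0.367 and 0.384 to 0.907. The log2 ratio of HFD to NCD was then 1.65. That of KO to WT, from 4 and 5 cells, lay on the other side of 0, at −0.52. A looser count, cells with at least 1 rule gene, gave 27.7% in WT, 29.7% in KO and 27.9% in NCD but 40.5% in HFD (39.1 to 42), or 17.3%, 18.1%, 15.9% and 27.7% after thinning. In HFD, 2.53% of cells held exactly 3 rule genes, against 0.567% in NCD, 0.688% in WT and 0.834% in KO.

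**Figure D1:**
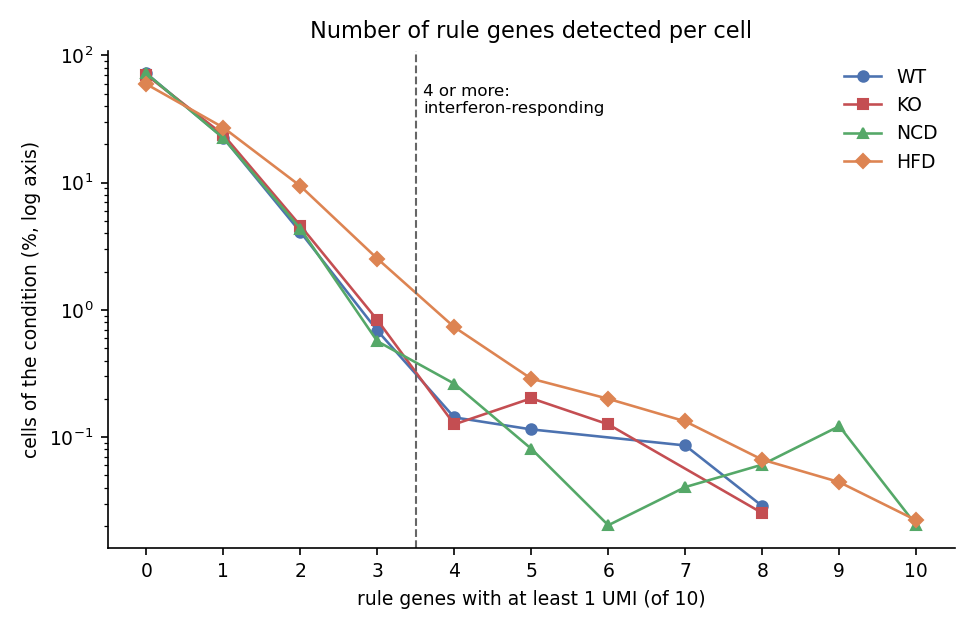
Share of cells (%, log axis) by the number of rule genes with at least 1 UMI, for each condition; numbers of genes with no cell are not drawn. HFD lies above the other 3 conditions from 1 to 8 rule genes (9.42% of cells at 2 genes, against 4.1% to 4.6%). At 9 genes NCD lies highest, with 6 cells.

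The threshold cut through a continuous distribution. In all conditions together 199 cells held exactly 3 rule genes, with a median of 4 rule-gene UMIs per cell, and 56 held exactly 4, with a median of 6. Cells with 7 or more rule genes numbered 4 among the 13 WT members and 1 among the 19 KO members. They were 12 of 30 in NCD (40%, 22.7 to 59.4) and 12 of 67 in HFD (17.9%, 9.61 to 29.2). The intervals of these 2 shares overlap. In NCD 13 members held 4 rule genes, 5 held 5 or 6 and 12 held 7 to 10. HFD members thinned out step by step, from 33 cells at 4 to 1 cell at 10. These numbers were not matched for depth: cells at 7 to 10 held a median of 6126 UMIs in NCD and 3506 in HFD. The part of depth was not tested.

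A further 85 interferon-induced genes that the rule did not use were summed in each cell: antiviral effectors, ISG15 and TRIM ligases, nucleic acid sensors and interferon-inducible GTPases. In T-cell-only members this sum ranged from 81 to 670 UMIs per 10000 for WT (median 183) and from 67.9 to 712 for KO (median 127). It ranged from 72.8 to 414 for NCD (median 177) and from 57.3 to 526 for HFD (median 170). Medians of the other cells were 53.1, 55.5, 56.8 and 71.5 per 10000. In all, 99 of the 126 members lay above the 95th percentile of the other cells of their condition, and 27 lay at or under it: 2 (WT), 5 (KO), 3 (NCD) and 17 (HFD). The sum also differed among cells in which no rule gene was seen, at 5350 CPM (WT), 5552 (KO), 5668 (NCD) and 6845 (HFD). With the number of rule genes it went from 5668 CPM at 0 to 9573 at 3, 12462 at 4 and 25222 at 7 to 10 in NCD, and from 6845 to 8485, 13527 and 30277 CPM in HFD. The rise was not steady in WT, with 18476 CPM at 4 rule genes (4 cells), 11156 at 5 or 6 (4 cells) and 44498 at 7 to 10 (3 cells). Nor was it in KO, with 9984 CPM at 4, 17558 at 5 or 6 and 9212 in the 1 cell above.

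**Figure D2:**
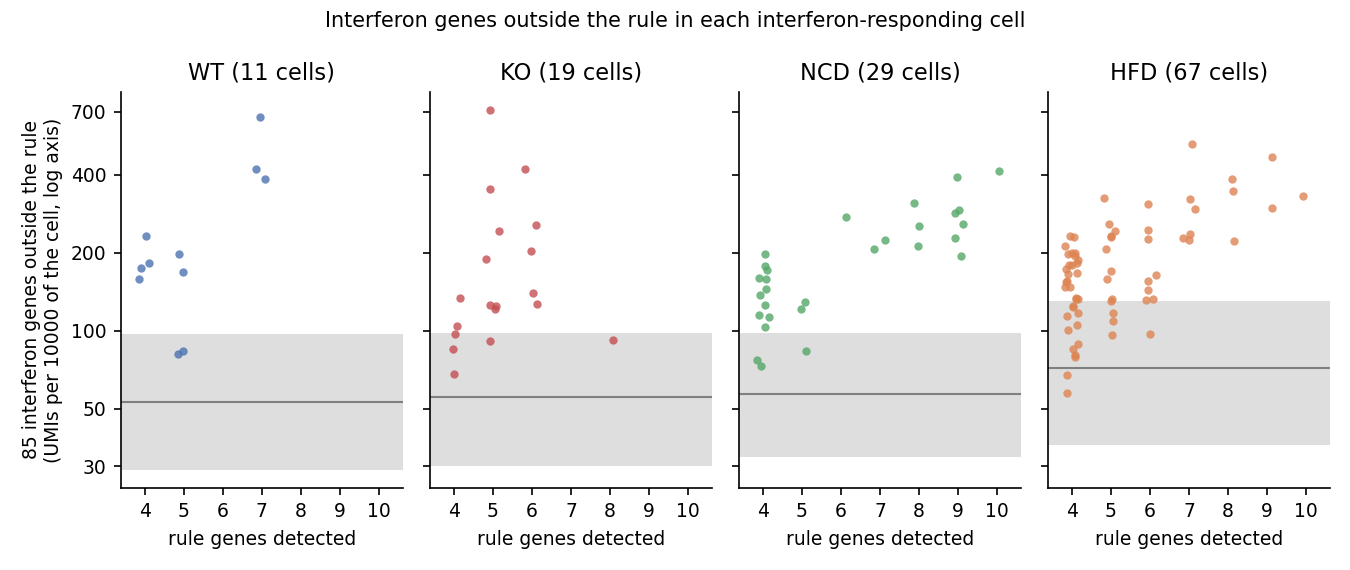
Each point is 1 T-cell-only member: rule genes detected (x axis, shifted slightly for sight) against the summed UMIs of 85 interferon-induced genes outside the rule, per 10000 UMIs of the cell (log axis). Grey bands span the 5th to 95th percentile of the other cells and grey lines their median; 99 of 126 members lie above the band, and the KO cell at 8 genes, the one of 35932 UMIs, lies inside it.

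To describe single genes, the UMIs observed over all 129 members were set against the number expected had each condition's members carried the level of that condition's other cells, a calculation added after the data had been seen. A gene is called higher or lower at a 2-fold difference, a rule of size, and 6626 genes outside the rule reached 20 CPM. Of these, 3.2% (212) were higher in members and 1.18% (78) lower, and the T-cell-only values left 155 higher. Within single conditions the small numbers of cells widened these shares: 25% of genes were higher and 12.3% lower in WT, 14.1% and 8.49% in KO, 7.51% and 4.79% in NCD, and 2.9% and 2.41% in HFD. Each list of genes below is to be read against these shares and against a median log2 ratio of 0.00 over all genes.

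The 12 genes most uniformly higher, ranked by their lowest log2 ratio over the 4 conditions, were Rnf213, A330040F15Rik, Gbp6, Ifi208, Ifi206, Iigp1, Xaf1, Irgm1, Ifi27l2a, Isg20, Trim30a and Ifi213. Ifi27l2a, a small interferon-induced membrane protein, was the most abundant, at 2008 CPM in members of WT, 1916 (KO), 2455 (NCD) and 3188 (HFD), against 466, 502, 480 and 746 CPM in the other cells. It was present in 124 of the 129 members and was about equally enriched everywhere, with log2 ratios of 2.11, 1.93, 2.36 and 2.10. Rnf213, a large ubiquitin ligase, was observed 145 times where 24.5 UMIs were expected (log2 ratio 2.54, interval 2.30 to 2.77). Iigp1, a GTPase that attacks the membranes around intracellular pathogens, stood at 206, 92.4, 112 and 256 CPM in members and at 6.82, 11, 5.14 and 61.6 CPM in other cells. HFD members therefore had the highest Iigp1 level and yet the lowest ratio (2.06, against 4.47 in NCD), since the other HFD cells carried more. Isg20, an RNA exonuclease, was at 289 CPM in NCD members and at 163 to 206 CPM in the other conditions' members. Outside members its level was 43.3 to 49.9 CPM. The T-cell-only values of Isg20 were 304 CPM (WT), 176 (KO), 285 (NCD) and 163 (HFD), so that NCD no longer lay highest.

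**Figure D3:**
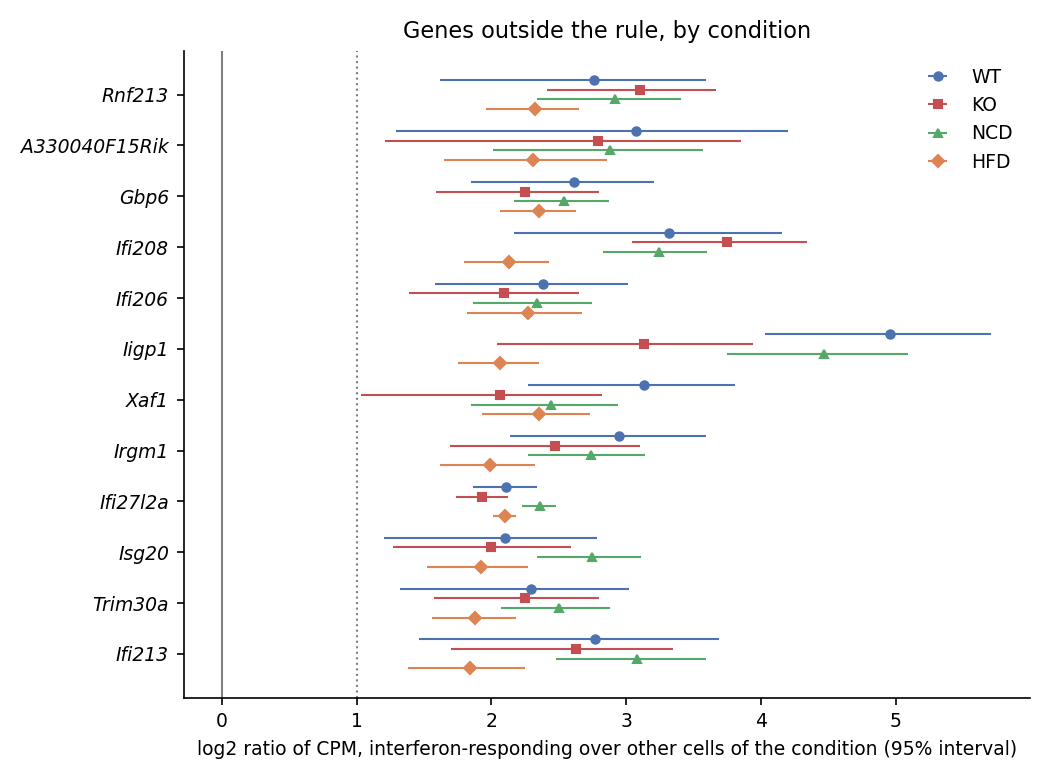
Log2 ratio of CPM in interferon-responding over other cells of the same condition, with 95% counting intervals, for the 12 genes most uniformly higher; the dotted line marks 2-fold. The genes were ranked by their lowest ratio over the conditions, and for all 12 the ratios lie above the dotted line in all 4. KO gives the lowest value for Gbp6, Ifi206, Xaf1 and Ifi27l2a. HFD gives it for the remaining genes, such as Iigp1 (2.06) and Ifi208 (2.13).

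Among genes of the receptors and of JAK-STAT signalling, Stat2 and Irf9 were higher by 2-fold and Ifngr2, with 8 UMIs, was lower. Stat2 was at 2.00 (74 UMIs against 18.1) and Irf9, a part of ISGF3, had 83 UMIs against 35.8 expected, also above 2-fold. The receptor chain Ifnar1 was observed 52 times against 70.5 expected (−0.44, interval −0.85 to −0.05) and Ifnar2 103 times against 73.6 (0.48, 0.19 to 0.76). The type II receptor chain Ifngr1 (−0.15) and the kinases Jak1 (−0.09), Jak2 (−0.13) and Tyk2 (−0.37) lay close to or slightly below expectation. Irf1, an interferon-induced transcription factor, stood at 0.80, below 2-fold, and the feedback inhibitors Socs1 and Socs3 at −0.12 and 0.43.

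Antiviral effectors outside the rule were higher for 24 of 33 measured genes and lower for 0, with a median log2 ratio of 1.61. The oligoadenylate synthases, which respond to double-stranded RNA, were among them: Oas1a was observed 80 times against 16.4 expected (2.25) and Oas3 35 times against 3.28. Bst2, the tetherin that holds budding virions, stood at 2.17, the Schlafen genes Slfn5, Slfn1 and Slfn8 at 1.81, 1.74 and 1.34, and the deoxynucleotide hydrolase Samhd1 at 1.40 (821 UMIs against 310). The PARP genes Parp12, Parp9 and Parp14 lay at 2.17, 1.80 and 1.63. Ifitm3, a block to viral entry, belongs here only by its WT cells: 81.7% of its UMIs came from 1 cell, and it turned to −0.35 in T-cell-only members, while Ifitm2 went from 1.65 to 0.30. Apobec3 (0.36), Zc3hav1 (0.08) and Shisa5 (0.35) stayed near expectation, with 245, 312 and 1258 UMIs.

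Genes of ISG15 conjugation and TRIM ubiquitin ligases were higher for 8 of 12 and lower for 0 (median 1.18). The E2 enzyme Ube2l6 was at 1.98 and the ISG15 ligase Herc6 at 1.76, while the E1 enzyme Uba7 was at 0.82. Trim30a was observed 188 times against 43.8 (2.09), and Trim14 at 64 against 62.2 was level. Among nucleic acid sensors 10 of 12 were higher and 0 lower (median 1.74). The RIG-I-like receptors Ifih1 (MDA5), Dhx58 (LGP2) and Ddx58 (RIG-I) lay at 2.58, 2.88 and 1.83, and the PYHIN proteins Ifi208, Ifi213 and Ifi206 at 2.59, 2.25 and 2.23. Tmem173, which encodes STING, stood at 69 UMIs against 69.7 expected (−0.01), and the inflammasome sensor Aim2 at 0.41. Ifih1 differed between diets, at 4.09 in NCD and 1.42 in HFD.

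Interferon-inducible GTPases, which include guanylate-binding proteins and immunity-related GTPases that act on vacuoles of intracellular pathogens, were higher for 14 of 15 and lower for 0 (median 1.69). The exception, Gbp8, was at 0.90. Gbp6 was observed 233 times against 43.9 (2.39), Irgm1 159 times against 31.9 (2.30) and Tgtp1 78 times against 16.3 (2.23). Tgtp1 and Tgtp2 are near copies and may share reads. By condition the list's median was 2.72 (WT), 1.96 (KO), 2.22 (NCD) and 1.28 (HFD), and its summed level in members was 3026, 1765, 2591 and 2537 CPM against 565, 584, 585 and 934 CPM in the other cells. The level outside members was thus highest in HFD, whereas the level inside them was not.

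Of the MHC class I presentation genes, 0 of 16 reached 2-fold in either direction, and their median log2 ratio was 0.64. The peptide-processing parts lay highest, with the chaperone Tapbp at 0.97, the immunoproteasome subunits Psmb10 and Psmb9 at 0.95 and 0.84, and the peptide transporter Tap1 at 0.84. The class I chains H2-K1 (0.00, 3309 UMIs) and H2-D1 (−0.03) were level, and B2m was at 0.23. Among surface and secreted genes linked to interferon, 6 of 13 were higher and 0 lower (median 0.97). Lgals3bp, a secreted galectin-binding protein, stood at 2.14, the chemokine gene Cxcl10 at 1.90 (146 UMIs against 38.7, of which 11.6% in 1 cell) and Ms4a4b at 1.27. The checkpoint ligand Cd274 was at 0.79. Ly6c1, at 1.41, owed 51.3% of its UMIs to 1 cell and was at 0.03 in T-cell-only members.

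Type I interferon genes were at or near 0 UMIs, whereas the type II interferon gene was detected. Of 19 interferon genes in the files, 16 had 0 UMIs in all 16895 kept cells, which allows up to 0.0178% of cells with a UMI. Ifnab had 1 UMI in KO cells, and Ifnz had 4 in WT, 6 in KO and 1 in NCD cells, none of them in members. Ifng, the type II interferon, was seen in 6.01% of other WT cells, 9.09% (KO), 5.62% (NCD) and 4.73% (HFD), and in at most 0.962% of B cell droplets of any condition. It had 10, 2, 9 and 22 UMIs in members of WT, KO, NCD and HFD, 43 in all against 24.6 expected (0.79, interval 0.33 to 1.22), and 23.3% of them came from 1 cell.

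Treg markers were present in the T-cell-only members. Foxp3, the lineage factor, was detected in 6 of 11 WT members and 9 of 19 KO members, and in 65.5% of the 29 NCD members and 52.2% of the 67 HFD members. In other cells of these conditions the shares were 55.5%, 56.8%, 53.7% and 40.3%, and in B cell droplets of the same libraries in 0 of 37, 1 of 27, 0 of 104 and 0 of 62. Those B cell droplets held medians of 3901, 5247, 4241.5 and 2917.5 UMIs. After thinning, the Foxp3 shares of members were 20%, 46.7%, 33.3% and 25%, against 37.1%, 38.5%, 33.5% and 27.5% of other cells. The higher shares of NCD and HFD members at full depth were thus absent at equal depth. Over all 129 members, Foxp3 levels lay at 138, 185, 177 and 192 CPM in WT, KO, NCD and HFD against 254, 263, 213 and 161 CPM, a combined log2 ratio of −0.12 (−0.36 to 0.11). T-cell-only members were at 203 CPM in WT and 194 CPM in NCD, and the combined log2 ratio was then −0.03. Of 12 Treg identity genes 0 were higher and 0 lower, with a median of −0.06. Ikzf2, encoding Helios, was detected after thinning in 70.0%, 73.3%, 70.4% and 70.3% of members and in 70.4%, 69.4%, 70.8% and 70.4% of other cells. Ctla4, the inhibitory receptor, was found after thinning in 82.8% of HFD members (71.3 to 91.1) and 67.2% of other HFD cells (65.6 to 68.7), intervals that do not overlap. In WT, KO and NCD its shares were 60%, 73.3% and 55.6% against 71.1%, 66.7% and 62.3%. The high-affinity interleukin-2 receptor chain Il2ra was lowest of this list, at −0.64 (−0.83 to −0.44).

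Genes of the ST2-high adipose Treg state had a median below 0 in members. Of 14 measured, 1 was lower by 2-fold (Plin2, the lipid droplet coat protein, −1.03) and 0 higher, at a median of −0.59. Il1rl1 stood at 82.5, 269, 555 and 69 CPM in members of WT, KO, NCD and HFD, against 694, 567, 805 and 133 CPM in other cells. All 4 conditions thus lay below, with 185 UMIs against 344 expected (−0.89, interval −1.11 to −0.69). T-cell-only members were at 122 CPM in WT and 576 CPM in NCD, and the combined log2 ratio was then −0.81. After thinning, the members with an Il1rl1 UMI numbered 2 among 10 in WT and 3 among 15 in KO and made up 59.3% of 27 in NCD and 3.12% of 64 in HFD, against 58.7%, 48.6%, 67.5% and 13.6% of other cells. Intervals of members and other cells overlapped in NCD (38.8 to 77.6 against 66.1 to 68.8) and in KO (4.33 to 48.1 against 47 to 50.3), but not in WT and HFD. B cell droplets thinned in the same way showed an Il1rl1 UMI in 0%, 0%, 1.98% and 1.82%, near the share of the thinned HFD members. At full depth, where members were the deeper cells, 16.4% of HFD members (8.49 to 27.5) held one. That was close to the 17.6% of other HFD cells and above the 1.61% of B cell droplets. WT, KO and NCD members then stood at 36.4%, 31.6% and 75.9%, against 71.2%, 58.8% and 78.1% of other cells. The receptor Klrg1 was at −0.76, the repair factor Areg at −0.58, the transcription factor Gata3 at −0.60 and the chemokine receptor Cxcr6 at −0.88, whereas Batf (0.04) and Prdm1 (−0.03) were level. Pparg, the nuclear receptor of adipose Treg cells, had 15, 15, 20 and 0 UMIs in these members; 3 counts, the limit of a count of 0, would be 4.48% of the HFD members, and 3.08% of other HFD cells held a UMI. All 15 in WT came from the 2 cells without T cell genes, and the combined log2 ratio of 0.34 became −0.09 in T-cell-only members.

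**Figure D4:**
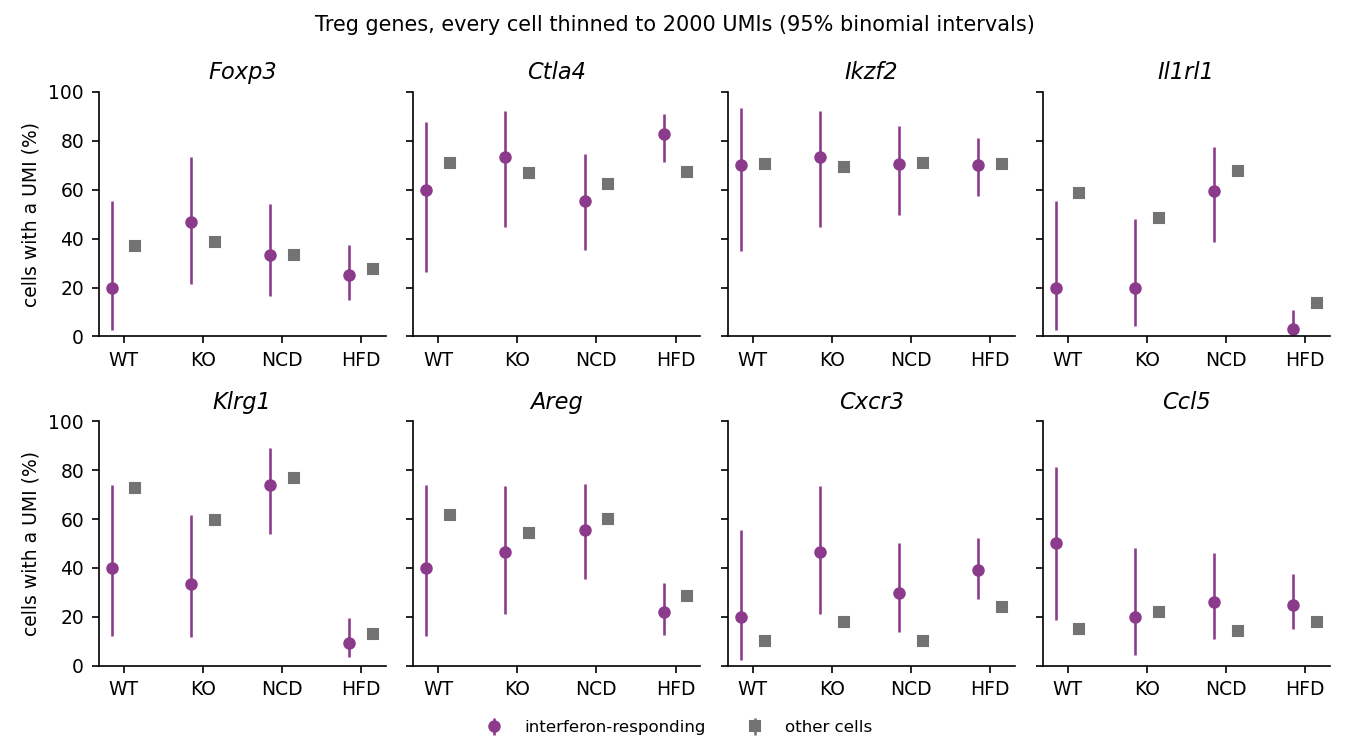
Share of cells with a UMI (%) after thinning every cell to 2000 UMIs, in T-cell-only interferon-responding cells (circles) and other cells (squares), with exact binomial 95% intervals, for 8 Treg genes in 4 conditions. Ikzf2 intervals overlap in each condition, Il1rl1 shares are lower in members in each (3.12% against 13.6% in HFD), and Cxcr3 shares are higher in each (39.1% against 24.1% in HFD).

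The type 1 program was higher by 2-fold in 1 of 10 measured genes and lower in 0, with a median of 0.36. Cxcr3, a chemokine receptor of type 1 cells whose ligands include CXCL10, stood at 151, 235, 149 and 293 CPM in members and at 70, 125, 71.5 and 183 CPM in other cells. Its combined log2 ratio was 0.79 (0.58 to 1.00), under 2-fold but on the same side in all 4 conditions. After thinning, 39.1% of HFD members (27.1 to 52.1) and 29.6% of NCD members (13.8 to 50.2) held a Cxcr3 UMI, against 24.1% and 9.93% of other cells. B cell droplets had none in either diet group once thinned. The chemokine Ccl5 lay at 0.47, with −2.78 in KO against 1.17, 1.14 and 0.54 elsewhere, and the master regulator Tbx21 at 0.36. Gzmk alone passed 2-fold, with 21 UMIs against 1.82 expected, but 52.4% of them were in 1 cell.

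Resting and lymphoid-homing genes gave a median of −0.07, with 1 of 11 higher: Igfbp4, which owed 84.6% of its UMIs to 1 cell and was at −1.81 in T-cell-only members. Ccr7, the lymph node homing receptor, was carried almost wholly by HFD members, with 82 of 84 UMIs and 202 CPM against 121 CPM in other HFD cells, and 23.8% of the UMIs lay in 1 cell. Early response and dissociation stress genes were lower by 2-fold for 1 of 12 (Atf3, −1.59) and higher for 0, at a median of −0.46. Jun was at −0.99 and Fos at −0.58. By condition the list's median was −1.16 (WT), −1.05 (KO), −0.43 (NCD) and −0.14 (HFD), and the part of handling in this difference was not tested.

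Proliferation genes were higher for 5 of 12 and lower for 0 (median 0.88), but few cells carried them. The cyclin Ccnb2 (1.78), the kinase Cdk1 (1.54) and Birc5 (1.41) were among them, and 30% to 37.3% of their UMIs came from 1 cell each. The median member had 0 UMIs of this list in every condition, as did the median of the other cells. Mki67 was seen in 0 of the 11 WT members and 3 of the 19 KO members, and in 6 of the 29 NCD members and 13.4% of the 67 HFD members (6.33 to 24), against 4.14%, 4.85%, 5.2% and 5.49% of other cells. After thinning the NCD and HFD shares were 11.1% and 3.12% against 2.31% and 3.02%. Cholesterol synthesis genes were neither higher nor lower by 2-fold for all 9 that could be measured over the 4 conditions (median 0.28). In KO members alone 4 of 7 were higher and 0 lower, at a median of 1.48, where 14.1% of all genes were higher; the whole list had 41 UMIs in KO members. Srebf2 was seen in 2 of 13 WT members and 2 of 19 KO members (10.5%, 1.3 to 33.1), while 749 of 3477 other WT cells (21.5%) and 58 of 3937 other KO cells (1.47%) held one.

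Of 10 macrophage and monocyte markers, 8 of dendritic cells and 7 of CD8 T and NK cells, 0 reached 20 CPM over the 4 conditions, with 9, 11 and 21 UMIs in all 129 members. Their sums ranged over the conditions from 0 to 55 CPM, 4.67 to 19.7 CPM and 0 to 37.3 CPM in members, and from 20.6 to 42.8, 9.04 to 29.6 and 23.3 to 39.8 CPM in other cells. Conventional CD4 T cell markers summed to 161 CPM in members and 222 CPM in other cells over the 4 conditions. B cell markers summed to 303, 319, 1060 and 412 CPM in members of WT, KO, NCD and HFD. Other cells were at 225, 264, 200 and 465 CPM. T-cell-only members were at 446 CPM in WT and 138 CPM in NCD, so that WT and KO members lay above the other cells of their condition and NCD and HFD members below; the part of B cell RNA in the results was not tested. Stromal and endothelial markers summed to 1018 CPM in WT members and to 20.3 CPM without the 2 cells named above. Hemoglobin Hbb-bs, one of the 12 lowest genes, was at 6 UMIs against 144 expected, yet 96.8% of its UMIs among other cells came from 10 cells, and 1.83% of other cells against 3.1% of members held any.

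Besides Hbb-bs, the 12 genes most uniformly lower were Plin2, Smyd3, Bhlhe40, Anxa1, Ramp1, Kcnq5, Cxcr6, Jun, Frmd5, Bcl2 and Il1rl1. Ramp1, a subunit of the receptor for the neuropeptide CGRP, stood at 41.3, 160, 145 and 37 CPM in members against 312, 254, 319 and 94.4 CPM. Anxa1, an anti-inflammatory annexin, was at 289, 269, 569 and 14.8 CPM against 702, 609, 899 and 64 CPM. The survival factor Bcl2 was at −0.84 (48 UMIs against 86.4) and Bhlhe40, a transcription factor of tissue Treg cells, at −0.88. Ramp1, Anxa1 and Il1rl1 were also lower in HFD than in the other 3 conditions among the other cells.

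Genes outside all lists were then ranked by T-cell-only values, a ranking made after the data had been seen. Higher were the PYHIN gene Ifi214 (78 UMIs against 10.9, 2.78), the predicted GTPase gene Gm4951 (33 against 4.64), Phf11c (2.42) and Phf11a (2.33), and the nuclear body genes Pml (1.86) and Daxx (1.85). The adaptor Hsh2d was at 1.95. Rab30 had 33 UMIs against 1.11, but 94.3% of its 35 UMIs in all members lay in 1 cell, and only 2 members held any. Lower were Pcyt1a, an enzyme of phosphatidylcholine synthesis (17 against 69.9, −2.01), the metallothionein Mt1 (12 against 51, −2.04) and Penk, the enkephalin precursor (26 against 67.8, −1.37, in 7 members). Penk was not lower in WT, where it stood at 82.5 CPM in members and 19.6 CPM in other cells (2.19, interval 0.62 to 3.22).

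HFD and NCD members were compared with each other beside the same ratio among the other cells of those conditions. Of 1846 genes at 100 CPM, 3.52% were higher and 6.39% lower in HFD members. Genes of the ST2-high state were lower in HFD for 8 of 10 measured and higher for 0, at a median of −2.37 inside members and −2.53 outside. Il1rl1 was at 69 CPM in HFD and 555 CPM in NCD members (−2.99, interval −3.66 to −2.40), against 133 and 805 CPM outside. Anxa1 was at 14.8 and 569 CPM (−5.16), and Pparg had 0 UMIs against 20. Early response genes were lower for 11 of 12, at −1.85 inside and −2.19 outside. Ccr7 was at 202 CPM in HFD and 4.67 CPM in NCD members (1 UMI), and Tcf7 at 202 and 23.3 CPM (2.99). Tnfrsf9, the costimulatory receptor 4-1BB, was at 150 CPM in HFD and 14 CPM in NCD members (3 UMIs), and at 209 and 84.4 CPM outside them. For the adipose state, members of both diets therefore differed in the direction of their neighbours.

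The lists of interferon-inducible GTPases and nucleic acid sensors did not follow that pattern. Among other cells, GTPases were higher in HFD by a median of 0.96 and nucleic acid sensors by 0.49, but inside members the medians were −0.24 and −0.30. Iigp1 had 1.17 (0.54 to 1.90) inside and 3.58 outside. Isg15 stood at 308 CPM in HFD and 677 CPM in NCD members (−1.13, −1.49 to −0.78) but at 43.7 and 28.3 CPM outside (0.63), and Ifit1 at 133 and 359 CPM (−1.43, −1.96 to −0.91) inside and at 3.58 and 0.773 CPM outside. The rule fixes a minimum of these genes in members of both diets, so their levels there are bounded by the choice of cells. Ifi27l2a alone among the 12 most uniform genes besides Iigp1 had an interval wholly above 0 inside members, at 0.38 (0.23 to 0.53), and Isg20 (−0.83) and Ifi206 (−0.72) had intervals wholly below it.

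**Figure D5:**
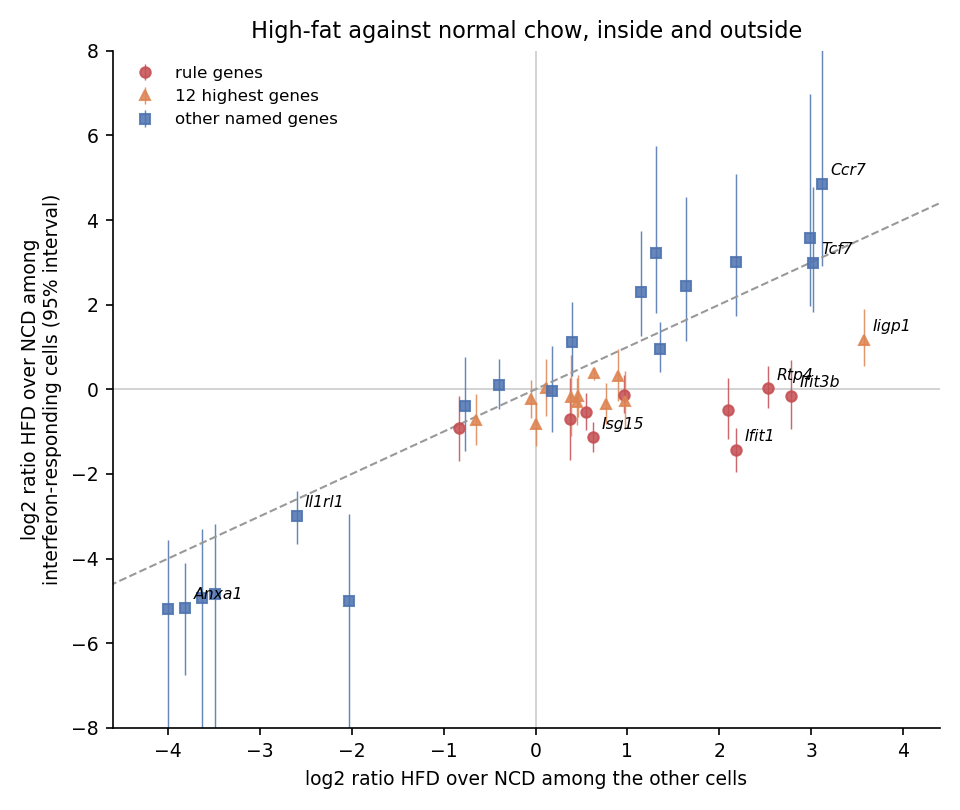
Log2 ratio of HFD over NCD among the other cells (x axis) and among interferon-responding cells (y axis, 95% counting intervals, cut at the frame), for 39 named genes with a UMI in all 4 sets of cells; the dashed line marks equal ratios. Il1rl1 (−2.60 and −2.99) and Tcf7 (3.02 and 2.99) lie near the line, and Iigp1 (3.58 and 1.17) lies below it.

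KO and WT members numbered 19 and 13 cells, and most of the genes in which they differed most were carried mainly by 1 cell. Of 2236 genes at 100 CPM, 14.1% were higher and 17.6% lower in KO members. Ccnb1ip1 had 104 UMIs in KO, of which 93.3% were in 1 cell, as were 96.2% of the Rrm2 UMIs and 100% of those of Hist1h2ae, and Fabp4 (629 UMIs, WT) belonged to the endothelial cells named above. Sh2d2a was an exception, with 27 UMIs in KO and 0 in WT members and 25.9% in 1 cell. Il1rl1 was at 269 CPM in KO and 82.5 CPM in WT members (1.61, 0.43 to 3.25), with 43.8% and 50% of its UMIs in 1 cell each. Its log2 ratio was 1.05 in T-cell-only members and −0.29 among other cells. Rule genes lay on either side, with Isg15 at 487 CPM in KO and 481 CPM in WT (0.01, −0.61 to 0.67), Irf7 at −0.22 (−0.93 to 0.53) and Ifit1 at 92.4 against 330 CPM (−1.80, −3.01 to −0.75). Of 12 GTPases 4 were lower in KO members and 0 higher, at a median of −0.90 inside and −0.02 among other cells. These KO levels include the cell of 35932 UMIs, which supplied 30.2% of the KO member counts. Its sum of interferon-induced genes outside the rule was 92.1 per 10000, under the KO member median of 127. The part of that cell in the lower KO levels of GTPases and Ifit1 was not tested. The intervals of Isg15 and Irf7 span 0, which does not show that KO and WT members are alike, and that of Ifit1 does not. Ifit1 had only 11 UMIs in KO and 24 in WT members, of which 36.4% and 45.8% lay in 1 cell each. Its interval holds counting error only and leaves out this spread between cells.

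T cell receptor beta variable segments were diverse among the members. Among HFD members 64 of 67 held a UMI of a Trbv segment, spread over 19 segments, and the most frequent, Trbv12-2, was in 13 cells (20.3%), against 12.5% of other HFD cells with a segment. In NCD 28 of 30 members used 11 segments, with Trbv12-2 in 5 (17.9%) and in 19.4% of other cells. KO members used 13 segments in 17 cells and WT members 8 in 11. Full receptor sequences were not used here.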

How the data were processed

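The values are whole-number UMI counts per gene and barcode and hashtag counts, deposited by the authors as filtered matrices with 32285 gene rows; per the file headers they were made with Cell Ranger 7.1.0 (Srebf2 pool) and 7.0.1 (diet pool), and per the submitters' processing notes with Cell Ranger 7.0.1 on mm10. Cells were kept at 500 or more genes, under 10% mitochondrial counts, 90% of at least 10 hashtag counts from 1 hashtag, and 0 UMIs of Cd79a, Lyz2 and Cd8a. Droplets of mixed hashtags were thus left out, and no doublet caller was run. The pools held 9036 and 11456 barcodes, of which 7446 and 9449 were kept. Counts were summed over cells and given as CPM; log2 ratios have 0.5 counts added to each side. Intervals are exact (Clopper-Pearson or Poisson) at 95%, and with 1 pool of mice per condition no test was made.

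Named genes are the 12 most uniformly higher and lower among 2954 genes at 50 CPM in every condition, the 8 highest and lowest between conditions at 100 CPM, the rule genes, up to 6 of each list farthest from equal levels, and Foxp3, Il1rl1, Pparg, Srebf2, Ccr7, Cxcr3, Ifnar1 and Ifnar2. A few genes are not reported here. Other list genes given for contrast were chosen after their values were seen. The members and lists were chosen with earlier results of these data known. The calculations were tested on simulated data. Alternatives changed the number of rule genes, the cell filters, the CPM floor and the depth. Python 3.11.15, numpy 2.4.6, scipy 1.17.1, pandas 2.3.3 and matplotlib 3.10.9 were used.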

Additional observations from a re-analysis of the deposited data

Results flagged for a closer look

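Cells with a UMI of Cd79a (B cells), Lyz2 (myeloid cells) or Cd8a (CD8 T cells) were left out of both members and other cells. Some of them still carried 4 or more rule genes, at a share above what a count of 0 allows. In NCD these were 13 of 579 such cells, or 2.25% (interval 1.2 to 3.81), and in HFD 14 of 297, or 4.71% (2.6 to 7.78). KO had 2 of 153 (1.31%, 0.159 to 4.64) and WT 0 of 186, which allows a share of up to 1.61%. Lyz2 cells gave 9 of 208 in NCD and 6 of 58 in HFD, and Cd79a cells 4 of 349 and 5 of 163. The diet difference among these cells was not tested.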

How the results depend on the processing

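With 1 pool per condition and 13 to 67 members, depth and cell number limit every value. The log2 ratio of member shares, HFD against NCD, stayed above 0 under every alternative run, from 0.96 to 1.77. That of KO against WT did so except after thinning, at −0.52 from 4 KO and 5 WT cells. With 3 or more rule genes the shares were 1.06% (WT), 1.31% (KO), 1.17% (NCD) and 4.01% (HFD), and with 5 or more 0.344% (NCD) and 0.754% (HFD). Thinned to 2000 UMIs they were 0.157%, 0.11%, 0.193% and 0.605%. Among cells with a Foxp3 UMI the HFD share was 1.91%. Leaving a gene out of the rule gave 0.405% (NCD) and 1.04% (HFD) without Isg15, 0.385% and 0.975% without Irf7, and for HFD 0.865% without Rtp4 and 0.931% without Zbp1; fewer rule genes lower a share by construction.

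Counts of genes higher by 2-fold moved with the floor: at 10 CPM they were 348 (4 conditions together), 3067 (WT), 792 (NCD) and 352 (HFD), and at 50 CPM 115, 970 (WT), 474 (KO), 224 (NCD) and 90 (HFD). Thinning gave 319 together, 2456 (KO), 1225 (NCD) and 668 (HFD). With 3 or more rule genes they were 132 together, 837 (WT), 390 (KO) and 95 (HFD), and with 5 or more 3191 (WT), 1516 (KO), 810 (NCD) and 499 (HFD). Keeping cells with Cd79a, Lyz2 or Cd8a gave 460 together and 611 (HFD). Between conditions inside members, 50 CPM gave 788 higher and 1021 lower in KO and 256 and 264 in HFD, and 200 CPM gave 102, 128, 25 and 60. Thinning gave 621 higher in KO and 197 higher and 302 lower in HFD, and 5 or more rule genes 113 higher in HFD.

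Some genes changed direction. Keeping cells with Cd79a, Lyz2 or Cd8a gave Anxa1 1.61, Plin2 1.24, Ifngr2 1.05, Capg 0.30, Atf3 0.23, Ccr7 −0.06, Il2rb −0.16 and Ctla4 −0.30. With 3 or more rule genes Ctla4 was at −0.04, Hbb-bs at 2.57 and Hbb-bt at 2.37. With 5 or more, Ccl5 was at −0.40, Gzmk at −1.63, Igfbp4 at −0.86 and Irf7 (HFD against NCD inside members) at 0.05. Requiring T cell transcripts, an alternative chosen after seeing the data, gave Cdh5 −0.62, Ifitm3 −0.35, Igfbp4 −1.81, Jchain −2.62 and Xbp1 −0.04. Without cells over 20000 UMIs, also chosen after seeing the data, Hist1h2ae, Hist1h2ap and Pclaf were each at −0.19 (KO against WT). Beyond the fewer cells and genes that these settings leave by construction, the cause was not tested. No paired analysis was possible because the results come from no test and each condition is 1 pool.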
